A study of Mus musculus with 9 samples.

Results

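The 40 genes described here encode chaperones of the endoplasmic reticulum (ER), disulfide isomerases, the machinery of ER-associated degradation (ERAD), part of the translocon and regulators of the unfolded protein response. They were chosen as a list of names from a table of 55291 genes, and all 40 were found in it. RNA-seq was made from mature olfactory sensory neurons of the main olfactory epithelium of mice, sorted by flow cytometry for high reporter fluorescence and low DAPI. The Olfr1507 group came from mice with the genotype Olfr1507-IRES-GFP, the Olfr73 group from Olfr73-IRES-GFP mice and the Olfr160 group from Olfr160-IRES-mCherry mice. An IRES lets the receptor transcript also encode the fluorescent protein, so fluorescence marks neurons that express the tagged odorant receptor allele. Each group had 3 libraries, although the design text of the series mentions duplicates. Nothing in the labels ties a library to its own animal, so a p-value here reflects how far these samples differ among themselves, and that spread may be technical. The reporter was GFP in the Olfr1507 and Olfr73 groups and mCherry in the Olfr160 group, so that reporter and receptor cannot be told apart in comparisons with Olfr160.

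Membrane and secreted proteins are folded in the ER. Chaperones such as BiP, the product of Hspa5, and calnexin hold unfolded chains, isomerases form and rearrange disulfide bonds, and chains that fail to fold are drawn back to the cytosol and ubiquitinated by ERAD ligases such as the Hrd1-Sel1L complex. When unfolded protein builds up, the sensors Ire1 (Ern1), Atf6 and Perk (Eif2ak3) act through Xbp1, cleaved Atf6 and Atf4 to raise the transcripts of these same genes. In olfactory neurons, odorant receptor protein itself is known to engage the Perk arm of this response when a receptor is first expressed.

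Several measurements on the whole libraries touch every value below. Library totals were 17212807 to 36230606 counts. The tagged receptor took 85.1% to 94.7% of the counts on Olfr genes in the Olfr1507 libraries, 22.8% to 32.8% in the Olfr73 libraries and 2.08% to 10.1% in the Olfr160 libraries. Markers of mature olfactory neurons took 6.84%, 4.27% and 3.11% of all counts on average in Olfr1507, Olfr73 and Olfr160. In the same order, immature neuron markers took 0.0927%, 0.152% and 0.227%, and progenitor and basal cell markers 0.00712%, 0.0162% and 0.0628%. All 10 progenitor and basal markers tested were called lower in Olfr1507 than in Olfr160. Of 12 immature neuron markers, 5 were called lower there and 3 higher. Markers of sustentacular and gland cells, which are the secretory epithelium around the neurons, took 0.0357% to 0.0686% in Olfr1507, 0.497% to 0.921% in Olfr73 and 2.96% to 5.92% in Olfr160. All 22 of these markers passed the test as lower in Olfr1507 than in Olfr160. Plasma and B cell markers took at most 6.18e-05% in an Olfr1507 library, 0.00104% in an Olfr73 library and 0.0384% in an Olfr160 library, and Csf1r, a macrophage marker, had 0 counts in every Olfr1507 library. In such bulk samples, fewer cells of a type and less RNA per cell cannot be told apart. The part of these other cells, and of neuron maturity, in the results below was not tested.

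Promoter sequences are shown first because many ER chaperone genes carry elements through which Atf6 and Xbp1 act. The windows were taken from RefSeq (GRCm38.p6) and run from 250 bases before the transcription start to 50 after it, and 32 of the 40 members had one. The elements searched on both strands were the ER stress response element (ERSE), spelled CCAAT, any 9 bases, then CCACG, the ERSE-II, spelled ATTGG, any base, then CCACG, and the unfolded protein response element (UPRE), spelled TGACGTGG. The ERSE was found in 9 of the 32 members (28.1%), against 37 of the 27025 genes with a window (0.137%). The ERSE-II was found in 2 members (6.25%), against 12 genes in all (0.0444%). The UPRE was found in 2 members (6.25%), against 193 genes in all (0.714%). A match describes letters in the window and is not evidence of binding.

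The 10 ERSE matches of the 9 genes are listed below, each read 5′ to 3′ on the strand that carries it. The fixed letters are in capitals and the 9 free bases, a spacing set by the search, are in lower case. Hsp90b1, the gene of the ER Hsp90 protein Grp94, holds a pair of them on opposite strands.
Hspa5: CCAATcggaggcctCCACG
Hsp90b1: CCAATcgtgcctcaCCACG
Hsp90b1: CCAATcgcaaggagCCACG
Calr: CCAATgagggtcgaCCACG
Canx: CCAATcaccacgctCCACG
Creld2: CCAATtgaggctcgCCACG
Derl3: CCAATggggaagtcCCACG
Dnajc3: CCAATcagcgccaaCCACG
Pdia6: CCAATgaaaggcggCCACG
Syvn1: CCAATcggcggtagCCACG

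The whole windows of 3 members are given because these had the highest mean TPM over all 9 libraries, with the matched element in capitals, for Hspa5 (chr2:34771840-34772139, plus strand), Hsp90b1 (chr10:86705395-86705694, minus strand) and Herpud1 (chr8:94386179-94386478, plus strand). In the Hsp90b1 window the second capital run is an ERSE read on the opposite strand, and in the Herpud1 window the capitals mark an ERSE-II.
Hspa5: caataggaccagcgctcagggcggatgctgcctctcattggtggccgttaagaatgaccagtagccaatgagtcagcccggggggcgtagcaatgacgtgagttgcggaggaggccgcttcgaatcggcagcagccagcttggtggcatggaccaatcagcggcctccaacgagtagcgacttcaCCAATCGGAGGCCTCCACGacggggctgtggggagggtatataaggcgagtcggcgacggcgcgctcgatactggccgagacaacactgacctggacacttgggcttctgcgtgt
Hsp90b1: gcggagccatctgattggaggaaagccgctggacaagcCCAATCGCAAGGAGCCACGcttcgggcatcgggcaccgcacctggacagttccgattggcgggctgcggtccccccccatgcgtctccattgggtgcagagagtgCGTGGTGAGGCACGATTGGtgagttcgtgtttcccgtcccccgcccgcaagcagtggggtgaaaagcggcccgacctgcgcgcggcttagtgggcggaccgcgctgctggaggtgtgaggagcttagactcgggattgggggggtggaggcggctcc
Herpud1: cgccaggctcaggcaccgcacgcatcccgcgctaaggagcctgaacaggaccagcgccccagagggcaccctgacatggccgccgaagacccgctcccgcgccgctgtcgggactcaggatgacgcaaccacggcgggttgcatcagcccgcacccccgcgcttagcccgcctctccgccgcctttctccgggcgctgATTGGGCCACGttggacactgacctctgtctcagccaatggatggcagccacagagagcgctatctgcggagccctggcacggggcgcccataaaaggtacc

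Distances are given to the upstream end of each match. The ERSE of Hspa5 began 65 bases before the start, that of Syvn1 44 and that of Calr 162, which are the nearest and the farthest among genes with a single ERSE. The pair in Hsp90b1 began 107 and 212 bases before the start. The ERSE-II of Herpud1 began 52 bases before the start and that of Dnajb11 7 bases after it. The UPRE stood 138 bases before the start in a window of Txndc5 and 68 bases before it in Ube2j1. No match was found in the windows of the other 19 members, among them Dnajb9, Sel1l, Pdia5, P4hb and Xbp1. Only the exact letters were searched, so a window may hold variants of an element that were not found.

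**Figure D1:**
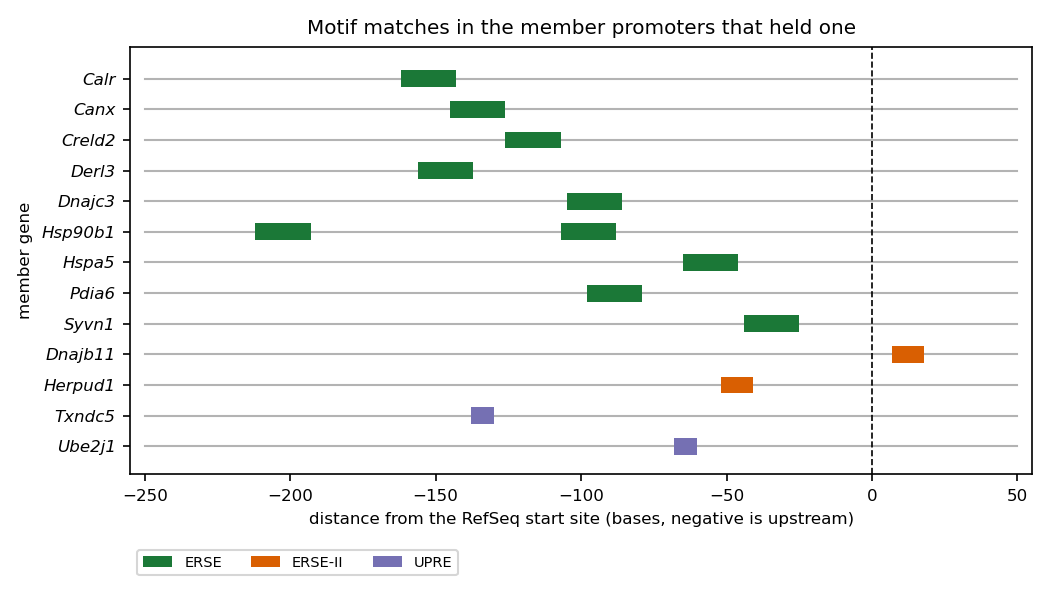
Positions of the ERSE, ERSE-II and UPRE matches in the promoter windows of the 13 members that hold one; the x axis is the distance in bases from the transcription start and each row is a gene. All 10 ERSE matches lie before the start, from 44 to 212 bases, and the ERSE-II of Dnajb11 lies 7 bases after it.

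The members spanned a wide range of levels, which are compared between genes here on the TPM scale, which is scaled for transcript length. Hspa5 was the most abundant member in every group, with a mean of 1484 ± 209 TPM in Olfr1507, 843 ± 144 TPM in Olfr73 and 1048 ± 105 TPM in Olfr160 (SD, n = 3 each). Hsp90b1 and Herpud1 came next by the mean over all 9 libraries, although Selenos, at 472 TPM in Olfr73 and 448 TPM in Olfr160, exceeded Herpud1 at 368 TPM in Olfr73 and 392 TPM in Olfr160. With Hspa5, Hsp90b1 and Herpud1 held 55.9% of the summed TPM of all members in Olfr1507, 41.0% in Olfr73 and 40.9% in Olfr160. At the other end, Sdf2l1, which encodes a partner of ER Hsp40 proteins, had at most 1.70 TPM in any library and 13 counts or fewer, and was the single member left out of the tests by the filter on low counts. Members at 100 TPM or more numbered 13 in Olfr1507, 12 in Olfr73 and 12 in Olfr160, and those under 10 TPM numbered 10 in both Olfr1507 and Olfr160 and 11 in Olfr73. The TPM of Sec61b, the small beta subunit of the Sec61 channel, averaged 153 over the 9 libraries although its normalised level, in counts not scaled for length, was only 5.34 to 11.2 CPM, so its TPM leans on the short length used for it by the authors' quantification.

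All members together took 0.815% to 0.842% of the counts in Olfr1507 libraries, 0.532% to 0.632% in Olfr73 libraries and 0.686% to 0.701% in Olfr160 libraries. These shares did not overlap between any of the groups. The summed TPM of the members was 7084, 6958 and 7080 in Olfr1507, 4297, 4796 and 3985 in Olfr73 and 4792, 5284 and 5393 in Olfr160. The Olfr1507 libraries stood above all others and the Olfr73 and Olfr160 ranges met between 4792 and 4796.

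**Figure D2:**
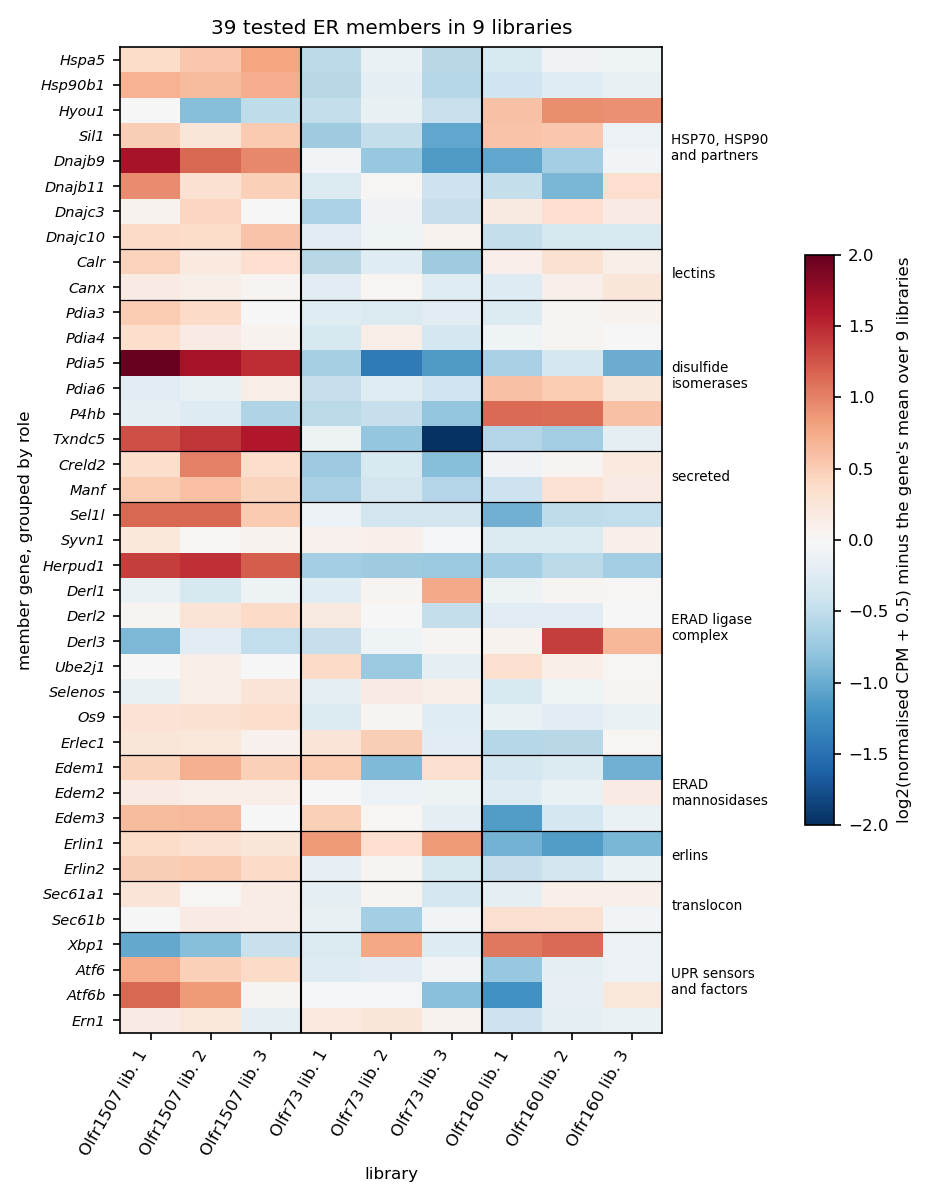
Normalised level (CPM) of each member in each of the 9 libraries, shown as log2(CPM + 0.5) minus the mean of that gene over the libraries, with genes grouped by role and libraries by group. Herpud1, Pdia5, Txndc5, Dnajb9 and Sel1l stand out as high in the 3 Olfr1507 libraries, and P4hb, Hyou1 and Pdia6 as high in the 3 Olfr160 libraries.

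Levels of single genes across libraries are given below in CPM, counts relative to the library total scaled by TMM (a trimmed mean of the ratios between libraries), and tests are edgeR quasi-likelihood F tests on all 16399 genes that passed the filter. Adjusted p-values are Benjamini-Hochberg values over all of these genes, with a threshold of 0.05. Each log2 fold change is given with its standard error (SE). The scaling matters here: with TMM the median gene of the whole table had a log2 fold change of -0.138 in Olfr1507 over Olfr160, -0.154 in Olfr1507 over Olfr73 and -0.012 in Olfr73 over Olfr160. With library size alone those medians are -0.56, -0.47 and -0.12. Directions given for single genes are those with TMM. With library size alone no called member changed direction, whereas with scaling to the olfactory transduction genes, described further on, 10 of the 15 members called higher in Olfr1507 over Olfr160 and 6 of the 16 in Olfr1507 over Olfr73 turned round. The comparisons share libraries, so their values are set side by side and not counted as separate evidence.

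Compared with Olfr160, the Olfr1507 libraries had more transcript of Hspa5, Hsp90b1, the ERAD ligase components Herpud1 and Sel1l, both erlin genes, and the isomerase genes Pdia5 and Txndc5, and less of Hyou1, Pdia6, P4hb and Xbp1. Of the 39 members tested, 15 rose and 4 fell, while 20 did not pass. Across all genes tested 20.7% were called higher and 27.7% lower. The median member had a log2 fold change of 0.388, against -0.138 for all genes. The median member stood 0.526 above the median gene, and 33 of 39 members were above it. The counts called changed with scaling. With library size alone 10 members rose and 6 fell, against 1343 higher and 6262 lower of all 16399 genes. Scaled to the transduction genes 1 rose and 28 fell, against 122 higher and 13730 lower of all genes.

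Compared with Olfr73, the Olfr1507 libraries again had more Herpud1, Sel1l, Hspa5, Hsp90b1, Dnajb9, Pdia5 and Txndc5, and also more Calr, Sil1 and Manf. Of the 39 members 16 rose by the edgeR test, against 14.5% of all genes called higher. In the other direction 0 members passed with edgeR, against 19.9% of all genes, while 2 (Xbp1 and Erlin1) were lower at an unadjusted p under 0.05, 1 (Erlin1) with DESeq2 and 0 with limma-voom. The median member was at 0.461 and the median gene at -0.154, an offset of 0.615, and 35 of 39 members were above the median gene. Scaled by library size alone, 10 members rose and 2 fell, against 1047 higher and 4706 lower of all 16399 genes. Scaled to the transduction genes 4 rose and 11 fell, against 362 higher and 8689 lower of all genes.

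Compared with Olfr160, the Olfr73 libraries differed in few members. Erlin1 rose, and Hyou1, Sil1, Calr, Pdia6 and P4hb fell. These are 1 and 5 of 39 members, against 7.45% of all genes called higher and 10.5% called lower. The median member was at -0.158 and the median gene at -0.012, and 17 of 39 members were above the median gene. Library size alone gave 1 higher and 7 lower, against 857 higher and 1942 lower of all 16399 genes. With Olfr160 library 3 as the only library of its group, Erlin1 still passed and the calls of the 5 that fell were lost (edgeR adjusted p = 0.0519 to 0.405). Hyou1 was then at -1.28 and Calr at -0.62, against -1.18 and -0.67 with all libraries, and 61 of all genes were called in place of 2936.

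Ordered by group mean, Olfr1507 was the highest group for 27 of 39 members (69.2%), against 35.1% of all genes tested. Olfr73 was the lowest group for 20 members (51.3%), against 20.4% of all genes. The libraries of Olfr1507 lay above all libraries of Olfr160 for 19 members and below them for 5, against 29.0% and 36.8% of all genes. For 65.8% of all genes these libraries did not overlap in either direction. They lay above all libraries of Olfr73 for 23 members and below them for 1, Xbp1, against 22.7% and 24.9% of all genes. The Olfr73 libraries lay above those of Olfr160 for 4 members and below them for 9, against 17.2% and 23.8%.

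**Figure D3:**
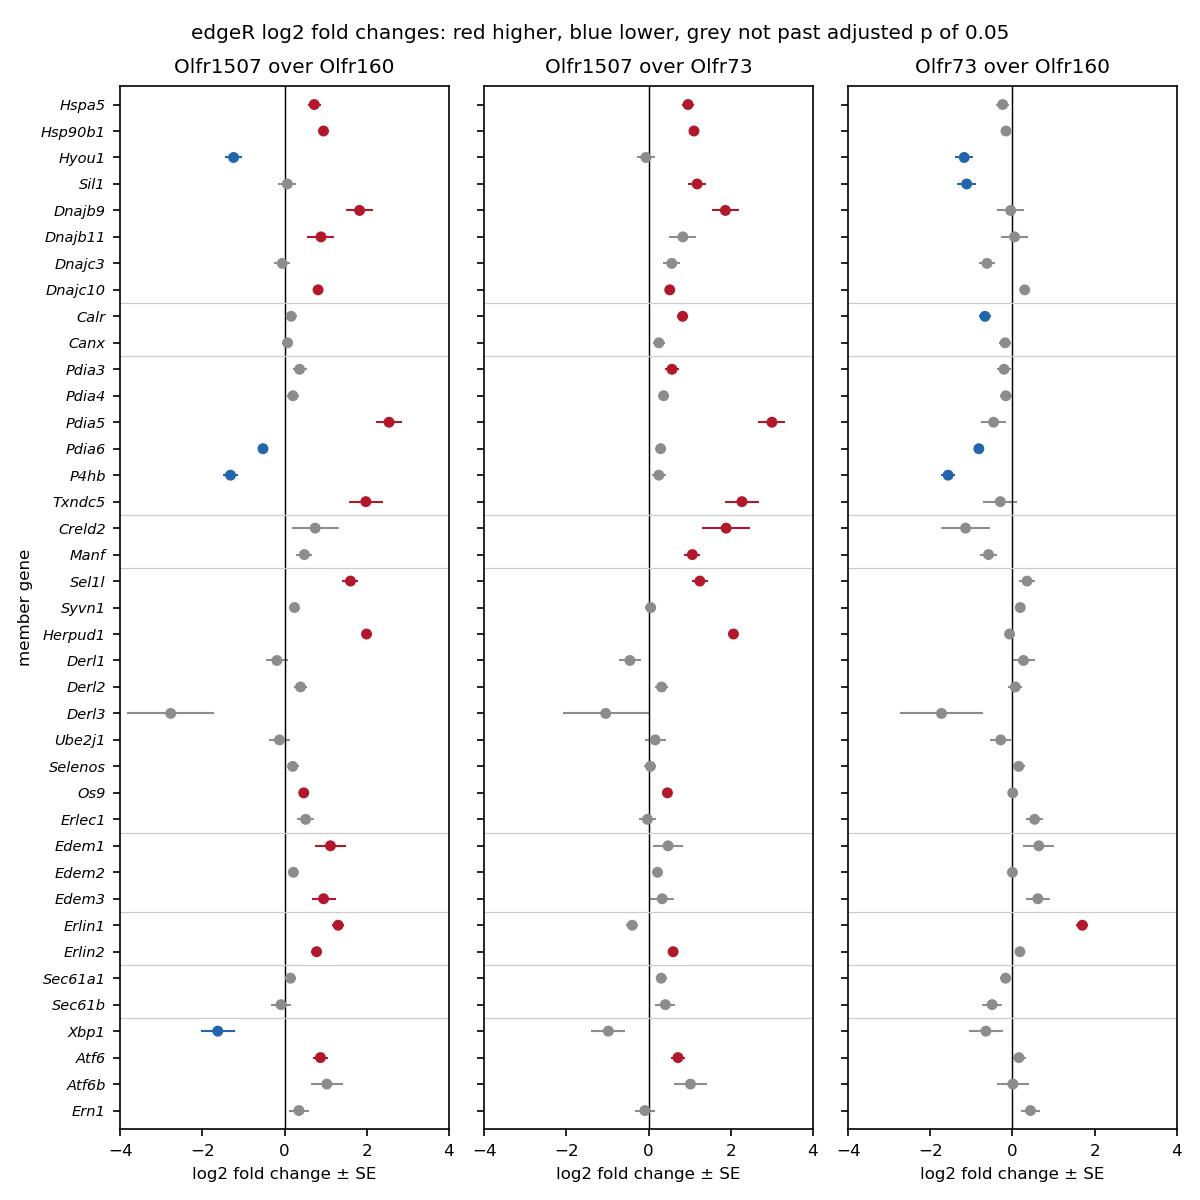
Log2 fold change (points) with its SE (bars) of the 39 tested members in the 3 comparisons, by gene and role, in red where called higher, blue where called lower and grey where the adjusted p was not under 0.05. In Olfr1507 over Olfr73 all 16 members past the threshold lie right of 0, while in Olfr1507 over Olfr160 the 4 that fell, Hyou1, Pdia6, P4hb and Xbp1, lie left of it.

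Among the Hsp70 and Hsp90 chaperones and their partners, 5 of the 8 tested members rose and 1 fell in Olfr1507 over Olfr160, and 5 rose over Olfr73. The shares of all genes were 20.7% higher and 27.7% lower over Olfr160, and 14.5% higher over Olfr73. Hspa5, Hsp90b1, Dnajb9 and Dnajc10 rose in both comparisons, Dnajb11 only over Olfr160 and Sil1 only over Olfr73, which is a list of calls and not a test of the difference. Hspa5 (mm10, chromosome 2 from 34771970 to 34777547), which encodes BiP, had 1805, 2028 and 2411 CPM in Olfr1507, 979.8, 1276 and 949 CPM in Olfr73 and 1136, 1330 and 1317 CPM in Olfr160. All 3 Olfr1507 libraries lay above the others, and the Olfr73 and Olfr160 libraries overlapped. Its log2 fold change was 0.72 (SE 0.16, edgeR adjusted p = 0.00491) in Olfr1507 over Olfr160 and 0.96 (SE 0.16, edgeR adjusted p = 0.00201) in Olfr1507 over Olfr73. With library size alone the call against Olfr160 was lost (adjusted p = 0.0969), and with scaling to the transduction genes its log2 fold change was -0.80.

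Hsp90b1 (chromosome 10 from 86690209 to 86705509), which encodes Grp94, had 1856, 1779 and 1901 CPM in Olfr1507, 782, 1015 and 773 CPM in Olfr73 and 868, 967 and 1034 CPM in Olfr160. The Olfr1507 libraries lay close together and above all others. Its log2 fold changes were 0.95 (SE 0.13, edgeR adjusted p = 4.69e-04) over Olfr160 and 1.11 (SE 0.13, edgeR adjusted p = 4.27e-04) over Olfr73. Both genes carry the ERSE shown above.

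Dnajb9 (chromosome 12 from 44205559 to 44210326), an Hsp40 partner of BiP that acts in ERAD, had 319.8, 226 and 198 CPM in Olfr1507, 97.5, 59.7 and 45.9 CPM in Olfr73 and 49.0, 62.6 and 97.9 CPM in Olfr160. Its libraries were spread in every group, but the lowest Olfr1507 library was above the highest of the others. The log2 fold changes were 1.83 (SE 0.34, edgeR adjusted p = 0.00208) over Olfr160 and 1.87 (SE 0.34, edgeR adjusted p = 0.00311) over Olfr73. Dnajc10, an Hsp40 protein with thioredoxin domains that reduces disulfides of ERAD clients, had 151 to 173 CPM in Olfr1507, 101 to 122 CPM in Olfr73 and 83.6 to 94.1 CPM in Olfr160. It rose by 0.82 (SE 0.11) over Olfr160 and 0.52 (SE 0.11) over Olfr73 on the log2 scale, with edgeR adjusted p-values of 3.47e-04 and 0.00613.

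Dnajb11, another Hsp40 partner of BiP, had 27.4, 17.5 and 19.8 CPM in Olfr1507, 11.5, 14.3 and 10.4 CPM in Olfr73 and 9.92, 7.20 and 17.8 CPM in Olfr160. The third Olfr160 library lay inside the Olfr1507 range, and the call over Olfr160 was at the edge of the threshold (log2 fold change 0.89 with SE 0.33, edgeR adjusted p = 0.0493) and was lost on leaving out any library other than the third of Olfr160, with adjusted p up to 0.167. Dnajc3, a co-chaperone that also inhibits Perk, had 15.3 to 20.97 CPM in Olfr1507, 9.77 to 14.6 CPM in Olfr73 and 17.3 to 19.7 CPM in Olfr160. It passed in none of the edgeR comparisons, where adjusted p was 0.835, 0.0552 and 0.062 in Olfr1507 over Olfr160, Olfr1507 over Olfr73 and Olfr73 over Olfr160.

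The nucleotide exchange factors of BiP are Hyou1 and Sil1. Hyou1 (chromosome 9 from 44379490 to 44392369), a large Hsp70 relative also known as Grp170, had 48.2, 26.5 and 33.8 CPM in Olfr1507, 34.4, 43.7 and 35.3 CPM in Olfr73 and 72.6, 92.1 and 91.6 CPM in Olfr160. All Olfr160 libraries lay above all others, while Olfr1507 and Olfr73 overlapped. It fell by 1.24 (SE 0.22, edgeR adjusted p = 0.00158) in Olfr1507 and by 1.18 (SE 0.22, edgeR adjusted p = 0.00867) in Olfr73, both against Olfr160 on the log2 scale. Sil1, the second exchange factor, had 31.5, 26.4 and 32.0 CPM in Olfr1507, 13.3, 15.8 and 10.5 CPM in Olfr73 and 33.0, 32.4 and 20.4 CPM in Olfr160. Here Olfr73 was the low group, below every other library. In Olfr1507 over Olfr73 Sil1 rose by 1.18 on the log2 scale (SE 0.22, edgeR adjusted p = 0.00407) and in Olfr73 over Olfr160 it was at -1.12 (SE 0.22, edgeR adjusted p = 0.0117), which was lost without Olfr160 library 2 (edgeR adjusted p = 0.0544).

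Of the lectin chaperones, which bind glycoproteins with trimmed sugars, Calr (chromosome 8 from 84841850 to 84846934) had 451, 377 and 417 CPM in Olfr1507, 223, 277 and 200.4 CPM in Olfr73 and 352, 406 and 357 CPM in Olfr160. Olfr73 was again below every other library and the other groups overlapped. The log2 fold change was 0.83 (SE 0.14, edgeR adjusted p = 0.00204) in Olfr1507 over Olfr73 and -0.67 (SE 0.14, edgeR adjusted p = 0.012) in Olfr73 over Olfr160, where the call was lost without Olfr160 library 2 (edgeR adjusted p = 0.0576). The membrane-bound relative Canx had 417 to 446 CPM in Olfr1507, 338 to 410.4 CPM in Olfr73 and 333 to 475 CPM in Olfr160, and edgeR adjusted p was 0.188 or more in each comparison. With library size alone it was called lower in Olfr1507 than in Olfr160 (log2 fold change -0.34, edgeR adjusted p = 0.0322).

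Of the 6 disulfide isomerases in Olfr1507 over Olfr160, 2 (Pdia5 and Txndc5) rose, 2 (P4hb and Pdia6) fell and 2 (Pdia3 and Pdia4) did not pass. Of all genes tested, 20.7% were called higher and 27.7% lower in that comparison. Pdia5 (chromosome 16 from 35397312 to 35490873), an ER disulfide isomerase, had 25.2, 19.2 and 16.8 CPM in Olfr1507, 3.43, 1.83 and 2.33 CPM in Olfr73 and 3.47, 4.37 and 2.62 CPM in Olfr160. The Olfr1507 libraries stood far above both other groups. The log2 fold changes were 2.54 (SE 0.32, edgeR adjusted p = 2.80e-04) over Olfr160 and 3.01 (SE 0.33, edgeR adjusted p = 2.68e-04) over Olfr73. Txndc5 (chromosome 13 from 38500079 to 38528824), an isomerase with repeated thioredoxin domains, had 29.4, 32.5 and 36.5 CPM in Olfr1507, 10.96, 6.70 and 2.61 CPM in Olfr73 and 7.70, 7.03 and 10.2 CPM in Olfr160. Its Olfr73 libraries varied most of all members in that group, with a coefficient of variation of 61.8%, yet none reached the Olfr1507 range. It rose by 1.98 (SE 0.42, edgeR adjusted p = 0.00441) over Olfr160 and by 2.28 (SE 0.425, edgeR adjusted p = 0.00376) over Olfr73 on the log2 scale.

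P4hb (chromosome 11 from 120560298 to 120573253), the classical protein disulfide isomerase and a subunit of prolyl 4-hydroxylase, had 125, 120 and 94.6 CPM in Olfr1507, 99.0, 104 and 82.5 CPM in Olfr73 and 317, 313 and 217 CPM in Olfr160. The Olfr160 libraries were above all others, and in Olfr160 the third library, which had the smallest share of sustentacular and gland markers of that group (2.96%, against 4.46% and 5.92% in libraries 1 and 2), was the lowest. The log2 fold change was -1.32 (SE 0.18, edgeR adjusted p = 3.67e-04) in Olfr1507 over Olfr160 and -1.57 (SE 0.18, edgeR adjusted p = 0.00229) in Olfr73 over Olfr160. Pdia6 (chromosome 12 from 17266545 to 17284770), which reduces and isomerises disulfides and works with BiP, had 180.3, 188 and 228 CPM in Olfr1507, 151, 176 and 159 CPM in Olfr73 and 312, 298 and 248 CPM in Olfr160. Every Olfr160 library was above every other, and the third was the lowest of them. It fell by 0.53 (SE 0.13, edgeR adjusted p = 0.00879) in Olfr1507 and by 0.82 (SE 0.13, edgeR adjusted p = 0.00502) in Olfr73 against Olfr160 on the log2 scale. P4hb, Pdia6 and Hyou1 were all highest in Olfr160, the group with the largest share of gland and sustentacular markers. Between Olfr1507 and Olfr73, where that share was 0.0357% to 0.0686% and 0.497% to 0.921%, none of them passed by edgeR, and P4hb and Pdia6 had the lower mean in Olfr73. Within Olfr160, Hyou1 was lowest in library 1 and not in library 3. The part of these cells in the differences was not tested.

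Against Olfr160 library 3 alone, Pdia6 no longer passed in Olfr1507 (log2 fold change -0.32, edgeR adjusted p = 0.202), nor in Olfr73 (-0.62, edgeR adjusted p = 0.161), and P4hb lost its call in Olfr73 (-1.19, edgeR adjusted p = 0.0519). Pdia3, the partner of calnexin and calreticulin, had 19.8 to 28.0 CPM in Olfr1507, 16.01 to 16.96 CPM in Olfr73 and 16.1 to 20.6 CPM in Olfr160, and rose by 0.57 (SE 0.17, edgeR adjusted p = 0.0312) over Olfr73 on the log2 scale. That call was lost without library 1 or 2 of Olfr1507 or any library of Olfr73, with edgeR adjusted p up to 0.115. Pdia4, with 128 to 155 CPM in Olfr1507, 95.2 to 133 CPM in Olfr73 and 115 to 127 CPM in Olfr160, passed in none of the comparisons by edgeR, where the smallest adjusted p was 0.0716.

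Both secreted ER stress proteins rose in Olfr1507 over Olfr73. Manf, a neurotrophic factor released on ER stress, had 27.6, 29.5 and 26.5 CPM in Olfr1507, 12.2, 14.9 and 12.7 CPM in Olfr73 and 14.4, 23.8 and 21.6 CPM in Olfr160. The Olfr1507 libraries were above all others. The log2 fold change over Olfr73 was 1.07 (SE 0.20, edgeR adjusted p = 0.00373), and that over Olfr160 did not pass (0.48, SE 0.20, edgeR adjusted p = 0.0676). Creld2 was scarce, with 25 to 76 counts in Olfr1507, 7 to 15 in Olfr73 and 19 to 27 in Olfr160, and rose over Olfr73 by 1.89 (SE 0.59, edgeR adjusted p = 0.0353) on the log2 scale, a call lost on leaving out any library other than the second of Olfr73 (adjusted p up to 0.142).

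**Figure D4:**
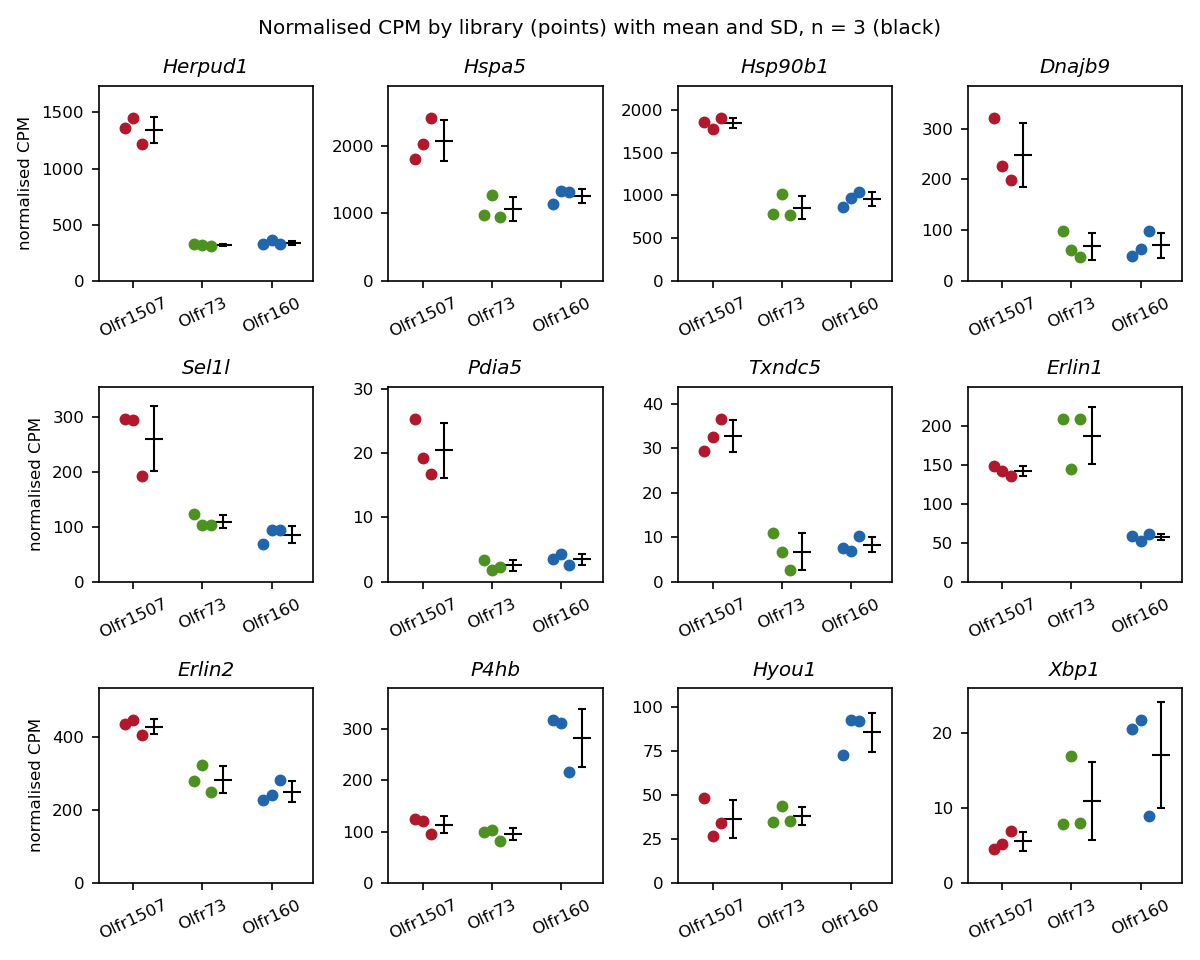
Normalised CPM of selected members in each library (points) with the group mean and SD (black, n = 3), for Olfr1507, Olfr73 and Olfr160 from left to right, each panel with its own axis from 0. The 3 Olfr1507 libraries of Herpud1 lie between 1217 and 1446 CPM, against 313 to 325 CPM in Olfr73 and 324 to 359 CPM in Olfr160.

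The ERAD ligase complex held the member with the smallest adjusted p in Olfr1507 over each of the other groups. Herpud1 (chromosome 8 from 94386438 to 94395377), a membrane protein that organises the Hrd1 ligase and is itself a target of the unfolded protein response, had 1362, 1446 and 1217 CPM in Olfr1507, 325, 320.4 and 313 CPM in Olfr73 and 325, 359 and 324 CPM in Olfr160. The Olfr1507 libraries stood far above the other groups, which overlapped near a common level. The log2 fold change was 2.00 (SE 0.105, edgeR adjusted p = 6.92e-06) over Olfr160 and 2.07 (SE 0.105, edgeR adjusted p = 5.41e-06) over Olfr73, whereas Olfr73 over Olfr160 gave -0.07 (SE 0.10, edgeR adjusted p = 0.653). Both calls passed under every alternative tried. As a share of the members' own TPM, which does not depend on scaling between libraries, Herpud1 took 19.5%, 20.6% and 17.05% in Olfr1507, 9.002%, 7.61% and 8.81% in Olfr73 and 7.95%, 7.84% and 7.04% in Olfr160. The exact two-sided permutation p was 0.1 for Olfr1507 against each other group, the smallest that 3 libraries against 3 allow. Many other members reached 0.1 too, some with a higher and some with a lower share. Hspa5 did not (exact permutation p = 0.8 against Olfr160 and 0.6 against Olfr73). The mean share of Hsp90b1 was highest in Olfr1507 (15.8%, against 13.2% in Olfr73 and 12.99% in Olfr160). That of Os9 was lowest there (3.76%, against 4.86% and 4.24%). The shares are parts of the same sum, so a larger Herpud1 share lowers the others. The promoter of Herpud1 is the one with the ERSE-II shown above.

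Sel1l (chromosome 12 from 91806043 to 91849157), the adaptor that brings clients to the Hrd1 ligase, had 296, 295 and 192 CPM in Olfr1507, 123, 103 and 103 CPM in Olfr73 and 68.4, 93.9 and 95.2 CPM in Olfr160. The third Olfr1507 library was lower than its fellows but above all libraries of the other groups. The log2 fold changes were 1.60 (SE 0.195, edgeR adjusted p = 2.24e-04) over Olfr160 and 1.25 (SE 0.19, edgeR adjusted p = 0.00152) over Olfr73. The ligase itself, Syvn1 (Hrd1), did not follow, with 83.6 to 96.0 CPM in Olfr1507, 80.3 to 88.7 CPM in Olfr73 and 67.9 to 88.5 CPM in Olfr160, ranges that overlap throughout. Its edgeR adjusted p was 0.139 or more in each comparison.

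Os9, a lectin that hands misfolded glycoproteins to Sel1L, had 367, 372 and 382 CPM in Olfr1507, 249, 311 and 254 CPM in Olfr73 and 275, 260.1 and 275 CPM in Olfr160. The rise was small but larger than the spread, at 0.47 (SE 0.105, edgeR adjusted p = 0.00572) over Olfr160 and 0.46 (SE 0.105, edgeR adjusted p = 0.0093) over Olfr73 on the log2 scale, and with library size alone neither passed (adjusted p = 0.743 and 0.272). Erlec1, a second such lectin, had 79.4 to 88.2 CPM in Olfr1507, 64.9 to 105 CPM in Olfr73 and 50.5 to 77.1 CPM in Olfr160, and did not pass (edgeR adjusted p of 0.0667 or more).

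The derlins, membrane proteins through which ERAD clients leave the ER, did not pass by edgeR with TMM either. Derl2 was the most abundant, with 144 to 181 CPM in Olfr1507, 99.4 to 157 CPM in Olfr73 and 119 to 137 CPM in Olfr160, and Derl1 had 7.79 to 9.21 CPM in Olfr1507, 8.28 to 17.1 CPM in Olfr73 and 9.20 to 10.3 CPM in Olfr160. Derl3, which secretory cells such as plasma cells express, had 0, 9 and 3 counts in Olfr1507, 4, 8 and 10 in Olfr73 and 10, 48 and 22 in Olfr160. The Olfr160 library with 48 Derl3 counts also had 1744 counts of Jchain, a plasma cell marker, against 36 and 7 in libraries 1 and 3, and its part in the Derl3 count was not tested. The edgeR adjusted p of Derl3 was 0.0556 in Olfr1507 over Olfr160, and it was called lower with library size alone (edgeR adjusted p = 0.036). DESeq2 and limma-voom also called it lower there. The ubiquitin-conjugating enzyme Ube2j1 stayed between 9.93 and 22.2 CPM over all libraries, and Selenos, a selenoprotein that links derlins to the Vcp ATPase, between 162 and 241 CPM. Neither passed in any comparison by edgeR.

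The Edem proteins trim mannose from glycoproteins bound for degradation. Edem1 had 11.1, 13.4 and 11.3 CPM in Olfr1507, 11.6, 4.12 and 10.1 CPM in Olfr73 and 6.16, 6.51 and 3.87 CPM in Olfr160. Edem3 had 45.5, 46.2 and 29.0 CPM in Olfr1507, 40.6, 29.8 and 25.5 CPM in Olfr73 and 13.2, 22.8 and 26.4 CPM in Olfr160. For both, every Olfr1507 library lay above every Olfr160 library and the Olfr73 libraries overlapped with either. Over Olfr160 they rose by 1.12 (SE 0.38, edgeR adjusted p = 0.036) and 0.95 (SE 0.29, edgeR adjusted p = 0.0237) on the log2 scale. The call of Edem1 was lost without any library of either group (adjusted p up to 0.104), and that of Edem3 without library 1 or 2 of Olfr1507 or library 1 of Olfr160 (adjusted p up to 0.0751). Edem2, with 60.7 to 62.4 CPM in Olfr1507, 51.2 to 55.5 CPM in Olfr73 and 46.5 to 61.9 CPM in Olfr160, did not pass.

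The erlins form a membrane complex that directs activated IP3 receptors to ERAD, and they differed from each other. Erlin1 (chromosome 19 from 44034944 to 44069785) had 148, 142 and 135 CPM in Olfr1507, 208, 145 and 208 CPM in Olfr73 and 59.2, 52.6 and 60.6 CPM in Olfr160. The Olfr160 libraries were well below all others, and Olfr73 was level with or above Olfr1507. Erlin1 was the only member called higher in Olfr73 than in Olfr160, by 1.70 on the log2 scale (SE 0.15, edgeR adjusted p = 0.00113), a call that passed under every alternative. Olfr1507 over Olfr160 gave 1.305 (SE 0.145, edgeR adjusted p = 1.38e-04), and Olfr1507 over Olfr73 gave -0.40 (SE 0.14, edgeR adjusted p = 0.0568), which passed with library size alone (adjusted p = 0.00711). Erlin2 (chromosome 8 from 27023261 to 27040328) had 437, 446 and 405 CPM in Olfr1507, 279, 323 and 249 CPM in Olfr73 and 227, 240.3 and 283 CPM in Olfr160. It was highest in Olfr1507, by 0.78 (SE 0.13, edgeR adjusted p = 0.0011) over Olfr160 and 0.60 (SE 0.13, edgeR adjusted p = 0.00666) over Olfr73, and Olfr73 and Olfr160 overlapped.

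The translocon subunits did not pass in any comparison. Sec61a1, the channel itself, had 435 to 506 CPM in Olfr1507, 330.4 to 436 CPM in Olfr73 and 373 to 453 CPM in Olfr160, with edgeR adjusted p of 0.0946 or more. Sec61b averaged 9.63 ± 0.585 CPM in Olfr1507, 7.25 ± 1.68 CPM in Olfr73 and 10.2 ± 1.51 CPM in Olfr160 (SD, n = 3 each), with edgeR adjusted p of 0.181 or more.

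Among the sensors and factors of the response, Atf6 and Xbp1 moved in opposite directions in Olfr1507 over Olfr160 with TMM and with library size alone. Scaled to the transduction genes both were lower there, at -0.61 for Atf6 and -3.25 for Xbp1 (edgeR adjusted p = 0.00479 and 4.58e-04). Atf6 (chromosome 1 from 170704674 to 170867771), the membrane-bound factor released by cleavage under ER stress, had 153, 128 and 119.7 CPM in Olfr1507, 76.5, 79.5 and 87.8 CPM in Olfr73 and 53.9, 80.0 and 84.8 CPM in Olfr160. All Olfr1507 libraries lay above the others. It rose by 0.87 (SE 0.17, edgeR adjusted p = 0.0032) over Olfr160 and by 0.72 (SE 0.17, edgeR adjusted p = 0.0123) over Olfr73 on the log2 scale, and the call over Olfr73 was lost without Olfr1507 library 1 (adjusted p = 0.0513). Xbp1 (chromosome 11 from 5520659 to 5525893), whose transcript is spliced by Ire1, had 4.48, 5.12 and 6.98 CPM in Olfr1507, 7.79, 16.9 and 8.02 CPM in Olfr73 and 20.6, 21.7 and 8.89 CPM in Olfr160. The Olfr1507 libraries were the lowest of all, and the third Olfr160 library lay within the Olfr73 range. The log2 fold change was -1.63 (SE 0.42, edgeR adjusted p = 0.0113) in Olfr1507 over Olfr160 and -0.98 (SE 0.42, edgeR adjusted p = 0.0952) in Olfr1507 over Olfr73. Against Olfr160 library 3 alone, the library with the smallest share of sustentacular and gland markers, the first of these was -0.69 (edgeR adjusted p = 0.399). Gene counts do not separate spliced from unspliced Xbp1.

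Atf6b had 138, 112 and 64.0 CPM in Olfr1507, 60.1, 59.98 and 34.4 CPM in Olfr73 and 26.4, 54.7 and 72.3 CPM in Olfr160, a spread that left it short of the threshold (edgeR adjusted p = 0.0541 in Olfr1507 over Olfr160 and 0.0702 in Olfr1507 over Olfr73). Ern1, the gene of Ire1, stayed between 4.77 and 7.77 CPM over all 9 libraries and did not pass, with edgeR adjusted p of 0.234 or more.

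Set side by side, 11 members were called higher in Olfr1507 than in both other groups, namely Hspa5, Hsp90b1, Dnajb9, Dnajc10, Pdia5, Txndc5, Sel1l, Herpud1, Os9, Erlin2 and Atf6. Hyou1, Pdia6 and P4hb were called lower than Olfr160 in both other groups. How many of all genes had each of these patterns was not counted, and the comparisons share libraries. With library size alone the calls of Dnajc10, Os9, Erlin2, Atf6, Pdia3 and Creld2 over Olfr73 were lost (edgeR adjusted p = 0.136, 0.272, 0.0638, 0.0613, 0.245 and 0.0635), as were those of Hspa5, Dnajb11, Os9, Edem1 and Edem3 over Olfr160 (edgeR adjusted p = 0.0969, 0.252, 0.743, 0.181 and 0.131). With Olfr160 library 3 as the only library of its group, 8 members rose and 2 (Hyou1 and P4hb) fell in Olfr1507 over Olfr160, and the calls of Hspa5, Dnajb9, Txndc5 and Os9 were lost, at log2 fold changes of 0.66, 1.34, 1.69 and 0.44 (edgeR adjusted p = 0.0673, 0.0675, 0.121 and 0.0746). With TMM on all libraries these were 0.72, 1.83, 1.98 and 0.47. The calls of Dnajb11, Edem1 and Edem3 were also lost (edgeR adjusted p = 0.613, 0.0973 and 0.264). In that smaller design 3337 of all genes were called, against 7939 with every library. In this fit the lone library is assumed to vary like those of the other groups. In 15 of the 39 members edgeR called no difference in any comparison, a pattern likewise not counted over all genes. Replicate spread was smaller in the members than in the table at large, with a median coefficient of variation of 10.8%, 16.7% and 13.5% in Olfr1507, Olfr73 and Olfr160, against 17.7%, 25.4% and 21.4% for all genes tested, which include many genes of lower count.

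Calls were also set beside the promoter matches. Of the 13 members with a match, 5 rose (Hspa5, Hsp90b1, Dnajb11, Txndc5 and Herpud1) and 1 fell (Pdia6) in Olfr1507 over Olfr160, and 7 did not pass. Of the 18 tested members with a window and no match, 8 rose, 2 fell and 8 did not pass. In Olfr1507 over Olfr73, 6 of the 13 with a match and 6 of the 18 without one rose. The shares of all genes were 20.7% higher and 27.7% lower in Olfr1507 over Olfr160, and 14.5% higher in Olfr1507 over Olfr73. Of the 9 genes with an ERSE, Canx, Syvn1, Dnajc3 and Derl3 passed in none of the edgeR comparisons, so that members with the same element differed in their values.

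The order of groups rests on how libraries are scaled. Scaling to the 23 olfactory transduction genes, which took 10.7% to 10.9% of the counts in Olfr1507, 7.34% to 7.53% in Olfr73 and 4.04% to 6.44% in Olfr160, moved the median gene to -1.69 in Olfr1507 over Olfr160, -1.002 in Olfr1507 over Olfr73 and -0.71 in Olfr73 over Olfr160 on the log2 scale. Of all genes called, 42.8%, 42.2% and 41.6% were higher with TMM in these comparisons, against 17.7%, 18.2% and 30.6% with library size alone and 0.881%, 4.0% and 1.89% with scaling to the transduction genes. Under that scaling Herpud1 was still called higher in Olfr1507 than in each other group, and the other members called higher in Olfr1507 over Olfr73 were Dnajb9, Pdia5 and Txndc5. A change of scaling moves members and all other genes by nearly the same amount, so the distance between the median member and the median gene is nearly fixed across scalings by construction.

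**Figure D5:**
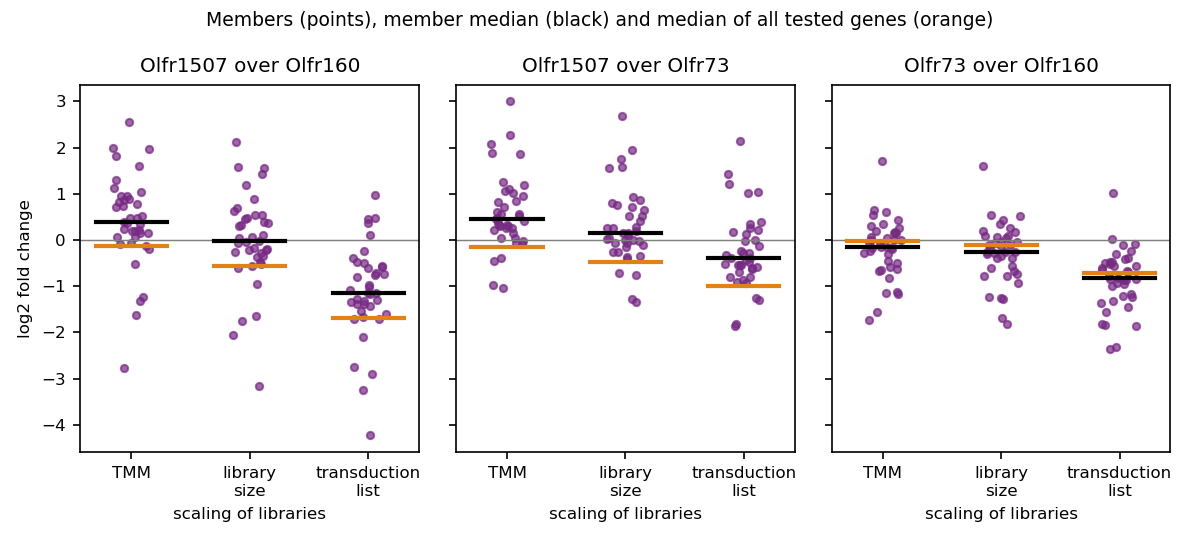
Log2 fold changes of the 39 tested members under TMM, library size alone and scaling to the olfactory transduction genes, for the 3 comparisons, with the median of the members and of all genes tested marked. The members and the median of all genes shift together with the scaling, by construction, and the position against 0 differs between the scalings.

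Other genes of the same pathways were counted from lists, with the lowest adjusted p naming the examples. The shares of all genes called, set beside each list, were 20.7% higher and 27.7% lower in Olfr1507 over Olfr160, where the median gene was at -0.138, and 14.5% higher and 19.9% lower in Olfr1507 over Olfr73, where it was at -0.154. Of 35 other ERAD genes tested, 13 rose in Olfr1507 over Olfr160 and 22 did not pass, and the list's median log2 fold change was 0.381. Over Olfr73, 12 rose and 2 fell, with a median of 0.249. By library size alone 3 of these genes rose and 5 fell over Olfr160 (median -0.044). Over Olfr73 4 then rose and 5 fell (median -0.062). Scaling to the transduction genes gave 2 higher and 30 lower over Olfr160, and 0 higher and 17 lower over Olfr73. Of all 16399 genes, library size alone called 1343 higher and 6262 lower over Olfr160, and 1047 higher and 4706 lower over Olfr73. With the transduction genes these were 122 higher and 13730 lower over Olfr160, and 362 higher and 8689 lower over Olfr73. They are the background for this list and those below under each scaling. Rnf185, an ER ubiquitin ligase, averaged 929 ± 77.1 CPM in Olfr1507, 427 ± 86.7 CPM in Olfr73 and 187 ± 5.01 CPM in Olfr160 (SD, n = 3 each), and the libraries of the groups did not overlap. It rose by 2.31 (SE 0.15, edgeR adjusted p = 1.40e-05) over Olfr160 and by 1.12 (SE 0.15, edgeR adjusted p = 7.17e-04) over Olfr73 on the log2 scale, and Olfr73 over Olfr160 gave 1.19 (SE 0.15, edgeR adjusted p = 0.0027). Dnajb14, an Hsp40 protein of the ER membrane, averaged 254 ± 6.78 CPM in Olfr1507, 121 ± 5.68 CPM in Olfr73 and 69.1 ± 14.9 CPM in Olfr160 and passed in all 3 comparisons. Both had an intermediate level in Olfr73 with TMM. Scaled to the transduction genes, Rnf185 did not pass over Olfr73 (0.27, edgeR adjusted p = 0.329) or in Olfr73 over Olfr160 (0.49, edgeR adjusted p = 0.123), nor did Dnajb14 (0.22 and 0.16, edgeR adjusted p = 0.161 and 0.35).

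In the N-glycan and calnexin cycle list, 9 of 18 genes rose and 2 fell in Olfr1507 over Olfr160, against 20.7% and 27.7% of all genes. The list's median log2 fold change was 0.398. By library size alone 4 rose and 2 fell, and scaled to the transduction genes 0 rose and 17 fell. Under these scalings 6262 and 13730 of all 16399 genes were called lower over Olfr160. The paralogous oligosaccharyltransferase subunits Tusc3 and Magt1 changed in opposite directions. Tusc3 averaged 42.8 ± 7.14 CPM in Olfr1507 and 10.6 ± 2.02 CPM in Olfr160, higher by 2.01 on the log2 scale (SE 0.21, adjusted p by edgeR = 9.31e-05), and Magt1 averaged 25.2 ± 1.37 CPM in Olfr1507 and 55.3 ± 3.74 CPM in Olfr160 (-1.14, SE 0.12, edgeR adjusted p = 1.12e-04), each with n = 3. Scaled to the transduction genes Tusc3 was at 0.51 and did not pass (edgeR adjusted p = 0.0598). In the translocation list 9 of 22 genes rose and 3 fell, with Srprb and Srp68, of the signal recognition particle and its receptor, as the examples. For that list library size alone gave 3 higher and 6 lower, and scaling to the transduction genes 0 higher and 22 lower. Among ER oxidation and isomerisation genes 3 of 18 rose and 2 fell, a share of higher calls below that of all genes. Here library size alone gave 1 higher and 7 lower, and scaling to the transduction genes 0 higher and 18 lower. Over Olfr73 with TMM, 4 of 18 N-glycan genes rose and 1 fell, and 7 of 22 translocation genes rose and 1 fell. Of the 18 oxidation and isomerisation genes 1 rose and 1 fell there. The shares of all genes over Olfr73 were 14.5% higher and 19.9% lower. Tmx3, a transmembrane thioredoxin-related protein, averaged 467 ± 37.3 CPM in Olfr1507, 390.3 ± 17.5 CPM in Olfr73 and 246 ± 67.2 CPM in Olfr160 and rose by 0.92 (SE 0.19, edgeR adjusted p = 0.00341) in Olfr1507 over Olfr160, though scaled to the transduction genes it was at -0.55. Qsox1, a secreted sulfhydryl oxidase, averaged 24.2 ± 1.32 CPM in Olfr1507, 23.4 ± 6.49 CPM in Olfr73 and 62.2 ± 19.04 CPM in Olfr160 and fell by 1.36 (SE 0.26, edgeR adjusted p = 0.00242) in Olfr1507 over Olfr160.

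Of 14 genes of the Perk arm, 7 rose and 3 fell in Olfr1507 over Olfr160, and 6 rose and 3 fell over Olfr73. The 3 that fell are near the share of all genes called lower. Called higher were 20.7% and 14.5% of all genes in these comparisons. By library size alone 4 rose and 4 fell over Olfr160, and 2 rose and 4 fell over Olfr73. Scaling to the transduction genes gave 0 higher and 8 lower over Olfr160, and 0 higher and 6 lower over Olfr73. Under that scaling 13730 and 8689 of all 16399 genes were called lower in these comparisons. Ddit3, the gene of the stress factor Chop, averaged 63.9 ± 9.74 CPM in Olfr1507, 61.8 ± 10.6 CPM in Olfr73 and 29.3 ± 0.52 CPM in Olfr160, so that the low group was Olfr160. It rose by 1.08 (SE 0.16, edgeR adjusted p = 0.00408) in Olfr73 over Olfr160 on the log2 scale. Trib3, a target of Chop, averaged 141 ± 18.9 CPM in Olfr1507, 70.4 ± 18.7 CPM in Olfr73 and 45.5 ± 7.01 CPM in Olfr160 and rose by 1.63 (SE 0.20, edgeR adjusted p = 2.59e-04) in Olfr1507 over Olfr160. Nupr1, a stress-induced chromatin protein, fell by 5.55 (SE 0.605, edgeR adjusted p = 1.25e-04) in the same comparison, with 1.32 ± 0.913 CPM in Olfr1507 and 65.5 ± 29.8 CPM in Olfr160. In Olfr1507 over Olfr73 the Perk arm genes with the lowest adjusted p both fell. Vldlr was at -2.60 (SE 0.24, edgeR adjusted p = 1.25e-04) and Nupr1 at -3.77 (SE 0.57, edgeR adjusted p = 0.00138). Of 15 other regulators, 5 rose and 3 fell in Olfr1507 over Olfr160, and 6 rose and 0 fell over Olfr73. In Olfr73 over Olfr160, 1 rose and 3 fell, against 7.45% and 10.5% of all genes. By library size alone the first 2 comparisons gave 3 higher and 3 lower, and 4 higher and 1 lower. Scaling to the transduction genes gave 0 higher and 13 lower, and 0 higher and 7 lower. Creb3l2 fell by 1.07 in Olfr73 over Olfr160 (SE 0.21, edgeR adjusted p = 0.0104). Tmbim6, an ER membrane protein that restrains Ire1, was far more abundant in counts than any member. It averaged 14328 ± 1405 CPM in Olfr1507, 8336 ± 239.7 CPM in Olfr73 and 4200 ± 228 CPM in Olfr160. It rose in Olfr1507 over Olfr160 by 1.77 (SE 0.12, edgeR adjusted p = 1.57e-05) and in Olfr73 over Olfr160 by 0.99 (SE 0.12, edgeR adjusted p = 0.00262) on the log2 scale. Scaled to the transduction genes, Trib3 and Tmbim6 did not pass in Olfr1507 over Olfr160 (0.047 and 0.24, edgeR adjusted p = 0.888 and 0.165), nor did Ddit3 and Tmbim6 in Olfr73 over Olfr160 (0.39 and 0.30, edgeR adjusted p = 0.226 and 0.146).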

How the data were processed

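Polyadenylated RNA of sorted neurons was made into low-input libraries. Per the submitters' processing notes, reads were aligned to mm10 with STAR 2.6.1 and quantified with RSEM 1.3.1, and DESeq2 is listed without a version. No source used here gives the annotation release. Of the pair of tables the authors deposited, the first holds expected counts from RSEM and the second TPM. Columns carry older receptor names, matched through RefSeq synonyms and checked against the counts of the tagged receptors.

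Expected counts were rounded and fitted with edgeR 4.0.16 in R 4.3.3 (filterByExpr, TMM, robust quasi-likelihood F test, all 9 libraries, a mean per group). The SE is the log2 fold change over the square root of F. The settings tried in place of these were RLE factors, library size alone, scaling to the olfactory transduction list, no filter, 5 CPM in 3 libraries, Olfr genes left out, DESeq2 1.42.0, limma-voom and limma-trend on log2(TPM + 1) or log2(TPM + 0.1) (limma 3.58.1), only the 6 libraries compared, the replicate number as a block, an adjusted p of 0.01, and leaving out each library. Olfr160 library 3 alone was added after seeing the data. The fit was tested on simulated data. Coordinates come from GENCODE M21, in which 98.7% of transcript identifiers were found with their version. Tables and figures used Python 3.11.15, pandas 2.3.3, numpy 2.4.6, scipy 1.17.1 and matplotlib 3.10.9.

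All 40 members are named, and of each list of other ER genes the 2 with the lowest adjusted p in a comparison are named or counted. The members and lists were chosen with earlier results of these data known. Protein sequences were not analysed here. The strand of the libraries and the treatment of overlapping genes are not given in the sources used here. With 17212807 to 36230606 counts per library, 3 counts correspond to 0.0828 to 0.174 CPM, which covers counting error only.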

Additional observations from a re-analysis of the deposited data

How the results depend on the processing

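The 153 gene values were recomputed under the alternative settings, which gave 3306 recomputed values. Of these, 154 no longer passed, 92 newly passed and 49 changed direction with at least 1 side past the threshold. The remaining 3011 kept their side of the threshold, and 149 of them changed sign while passing in neither. Scaling to the olfactory transduction list gave 48 of the 49. In Olfr1507 over Olfr160 its log2 fold changes were Hspa5 -0.80, Hsp90b1 -0.58, Sil1 -1.53, Dnajb11 -0.57, Dnajc10 -0.71, Calr -1.38, Canx -1.43, Pdia3 -1.15, Pdia4 -1.34, Manf -1.01, Syvn1 -1.27, Derl2 -1.14, Selenos -1.32, Os9 -1.08, Erlec1 -0.98, Edem1 -0.48, Edem2 -1.29, Edem3 -0.51, Erlin1 -0.24, Erlin2 -0.74, Sec61a1 -1.38, Atf6 -0.61, Ern1 -1.17, Creb3 -0.74, Srp68 -0.57, Srprb -0.88 and Tmx3 -0.55. In Olfr1507 over Olfr73 they were Dnajc10 -0.33, Calr -0.013, Canx -0.59, Pdia3 -0.28, Syvn1 -0.80, Selenos -0.80, Os9 -0.38, Edem2 -0.63, Erlin2 -0.25, Sec61a1 -0.54, Atf6 -0.13, Erp44 -0.36, Man1b1 -0.11, Spcs2 -0.25 and Srp72 -0.17. In Olfr73 over Olfr160 they were Selenos -0.52, Os9 -0.70, Erlin2 -0.49, Atf6 -0.48, Ganab -0.24 and Srprb -0.19. Library size alone gave Canx -0.34 in Olfr1507 over Olfr160. With TMM, 7939, 5640 and 2936 of all genes were called in Olfr1507 over Olfr160, Olfr1507 over Olfr73 and Olfr73 over Olfr160. With the transduction list members called were 1 higher and 28 lower, 4 higher and 11 lower, and 1 higher and 20 lower. All genes called were then 13852, 9051 and 5088, the shift of the median gene being built into that scaling. With library size alone, members in Olfr1507 over Olfr73 were 10 higher and 2 lower. The count of members lower in Olfr1507 over Olfr73 was 1 with RLE factors, the 5 CPM filter, Olfr genes left out, DESeq2, either TPM fit or only 6 libraries. With Olfr160 library 3 alone, a smaller design chosen after seeing the data, Olfr1507 over Olfr160 gave 8 members higher, 2 lower and 3337 genes, and Olfr73 over Olfr160 gave 0 members lower and 61 genes. An adjusted p of 0.01 gave 4969, 2837 and 769 genes and 3 members lower in Olfr73 over Olfr160, and limma-voom 4453 genes there, for which the cause was not tested. Leaving out each library gave 12 to 18 members higher, 4 to 4 lower and 6391 to 8890 genes in Olfr1507 over Olfr160, 13 to 18 higher, 0 to 1 lower and 3657 to 5546 genes in Olfr1507 over Olfr73, and 1 to 2 higher, 3 to 6 lower and 976 to 3062 genes in Olfr73 over Olfr160. Replicate numbers did not pair the libraries: correlations of deviations were -0.214 to 0.137 for 9 pairs with the same number and -0.13 to 0.145 for 18 others. With the replicate number as a block, members called were 13 higher and 5 lower, 15 higher and 0 lower, and 1 higher and 6 lower, and genes called were 7398, 4804 and 2485. Members of few counts, such as Creld2 and Derl3, are limited by depth.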
